A study of Mus musculus with 4 samples.

Results

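The genes described here were 10 components of the p53 pathway and the CDK inhibitor families: *Trp53*, its targets *Cdkn1a*, *Mdm2*, *Bax*, *Bbc3*, *Ccng1* and *Sesn1*, and the further inhibitors *Cdkn1b*, *Cdkn2a* and *Cdkn2b*. They were chosen by name among the 55450 genes of the count data, and each name occurred once. After a filter on low counts, 8 of the 10 were tested among 16269 genes, and *Cdkn2a* and *Cdkn2b* did not pass it.

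RNA-seq was performed on 2 unloaded and 2 loaded cultures of MLO-Y4, an osteocyte-like line derived from mouse bone and labelled wild type. Loading was an equiaxial stretch of 20% at 0.5 Hz that lasted 12 h, on plates whose flexible silicone base was coated with collagen. The unloaded cultures spent 12 h in the same incubator on ordinary culture plates, so stretch and plate surface cannot be told apart. All cultures had reached 60% confluency, and no label says whether the replicates came from separate cell stocks, so p-values measure the spread between these libraries. Total counts ranged from 28941994 to 32185693 per library. Levels are given as CPM, in which each count is divided by the size of its library after TMM normalisation for composition, and a floor of 3 counts was 0.0930 to 0.103 CPM per library. Changes are given as log2FC, the log2 fold change of loaded over unloaded cells. The osteocyte markers *Pdpn*, *Phex* and *Gja1* were expressed, *Dmp1* had 12 to 14 counts per library, *Sost* had 4 counts in 1 library, and *Mepe* had none. Of the macrophage and osteoclast markers, *Ptprc*, *Adgre1*, *Acp5* and *Itgam* had at most 5 counts in any library, *Cd68* was at 5.12 and 2.94 CPM and *Ctsk* at 4.99 and 7.64 CPM in unloaded and loaded cells, and *Csf1r* was at 1579 CPM in unloaded and 1560.2 CPM in loaded cells. The endothelial markers *Pecam1*, *Cdh5*, *Kdr* and *Tek* had at most 61 counts in any library. Of the osteoblast markers, *Col1a1* was at 1012 and 953 CPM, *Col1a2* at 1450.1 and 1355 CPM, *Spp1* at 407 and 287 CPM and *Runx2* at 48.9 and 54.8 CPM in unloaded and loaded cells, *Sp7*, *Alpl* and *Bglap* had at most 25 counts in any library, and *Ibsp* had none.

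p53, encoded by *Trp53*, is a transcription factor that accumulates after DNA damage and other stresses and switches on genes for cell cycle arrest, repair and cell death. It also switches on *Mdm2*, whose product marks p53 for degradation. CDK inhibitors hold cyclin-dependent kinases inactive, which keeps RB family proteins bound to E2F factors and stops entry into S phase. MLO-Y4 cells descend from a transgenic mouse in which an osteocalcin promoter drives the SV40 large T antigen, a viral protein that binds both p53 and RB proteins. Levels of p53 targets in this line carry that caveat. The transcript of the T antigen was not analysed here, so its level in these cultures is not known. *Bglap*, a mouse osteocalcin gene, had 0 to 4 counts per library, which was not used as a measure of the transgene.

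Promoter windows from RefSeq (build GRCm38.p6) are shown first, because p53 acts on its targets through a defined DNA sequence. The windows run from 250 bases before to 50 bases after an annotated start. All 10 genes had at least 1 window, and 15 windows were found in all. The p53 consensus element is a tandem of a short repeat, and it was searched without a spacer, over 20 bases, with at most 2 mismatches and with the core C and G of each repeat intact. The consensus reads the same on both strands. Such a tandem was found in 2 of the 15 windows, those of *Ccng1* and of the first of the 2 annotated starts of *Cdkn1a*, and in 0.33% of all 32851 windows. Most of the 10 genes were picked as p53 targets in the first place, so the difference in these shares was not tested. Each stretch of 60 bases below is written 5′ to 3′ on the strand of the gene, with the tandem in capitals.
*Cdkn1a*, chr17:29090908-29090967, plus strand: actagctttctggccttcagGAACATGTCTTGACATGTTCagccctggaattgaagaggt
*Ccng1*, chr11:40755442-40755501, minus strand: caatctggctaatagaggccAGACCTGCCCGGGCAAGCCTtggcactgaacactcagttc

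The *Cdkn1a* tandem lies at bases -51 to -32 from that start and has 1 mismatch to the consensus, at base 11 of the tandem. The *Ccng1* tandem lies at bases -195 to -176 and has 1 mismatch, at base 5. A single exact repeat occurred in 6 of the 15 windows, those of *Cdkn1a*, *Ccng1*, *Mdm2*, *Bax*, *Trp53* and the second start of *Sesn1*, and in 8.36% of all windows. A match in these letters is a description of the window and not evidence of binding, and elements outside the windows were not searched.

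To compare the levels of the genes, CPM was divided by the annotated exon length in kilobases, joined over all annotated transcripts of a gene. The order depends on this length, because a shorter transcript would give a higher level per kb. *Ccng1*, which encodes cyclin G1, was highest at 257 CPM per kb over the 4 libraries, above 99.3% of the tested genes. *Bax*, a pore-forming activator of apoptosis, and *Cdkn1a*, which encodes the CDK inhibitor p21, followed at 102 and 97.5 CPM per kb, and their ranges over the libraries overlapped. *Mdm2* was at 65.0 CPM per kb and *Trp53* itself at 52.6 CPM per kb, above 95.3% and 93.9% of the tested genes. The lower group held *Cdkn1b*, which encodes the CDK inhibitor p27, at 14.1 CPM per kb, *Bbc3*, which encodes the pro-apoptotic protein PUMA, at 10.3 CPM per kb, and *Sesn1*, which encodes the stress protein sestrin 1, at 5.16 CPM per kb. With these lengths, no range over the 4 libraries overlapped that of the next gene in the order, from *Cdkn1a* down to *Sesn1*. The ranges cover the spread between libraries and not the choice of length. At the bottom were *Cdkn2a*, with 0.0907 CPM per kb, and *Cdkn2b*, with no count.

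None of the 8 tested genes differed between loaded and unloaded cells at an adjusted p under 0.01, with either edgeR or DESeq2. In the same tests, 0.0983% of all tested genes passed with edgeR's quasi-likelihood test and 2.91% with DESeq2, so a count of 0 among 8 genes lies near this background. At an unadjusted edgeR p under 0.05, again 0 of the 8 passed, against 14.3% of all tested genes (6.88% higher and 7.46% lower in loaded cells). The log2FC values ran from -0.18 to 0.14, with 5 positive and 3 negative values and a median of 0.07, beside a median of -0.01 over all tested genes.

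**Figure D1:**
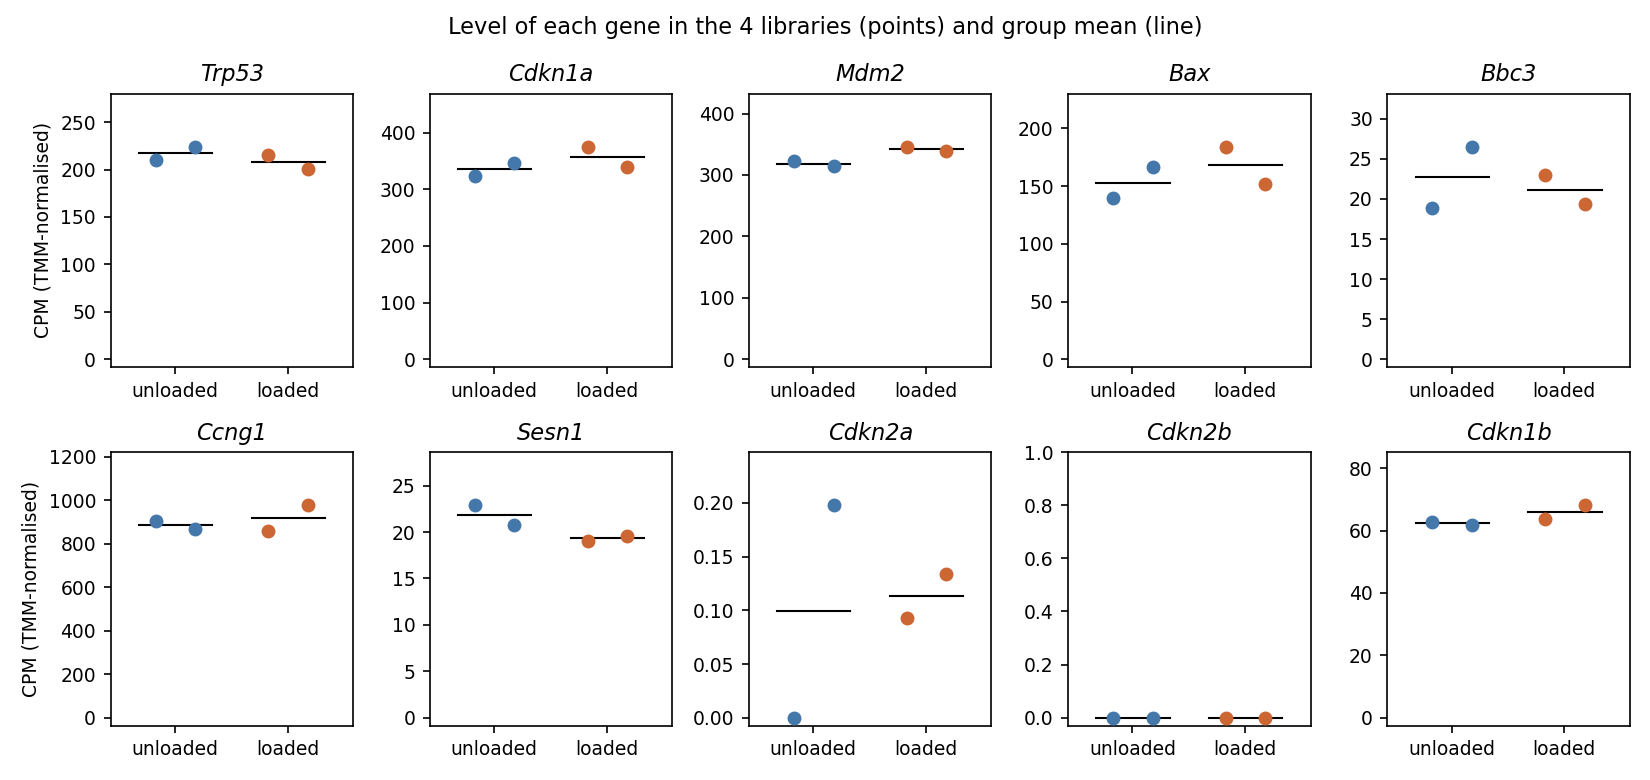
Level of each of the 10 genes in CPM (y axis, starting at 0, with its own scale in each panel) in the 2 unloaded (blue) and 2 loaded (orange) libraries, with lines at the group means. The points of the groups overlap for *Trp53*, *Cdkn1a*, *Bax*, *Bbc3*, *Ccng1* and *Cdkn2a*, and *Cdkn2b* lies at 0 in all 4 libraries.

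*Trp53* (ENSMUSG00000059552.13, chr11:69580359-69591873, plus strand, GRCm38) was measured at 210.0 and 224 CPM in unloaded replicates 1 and 2 and at 215 and 201 CPM in loaded replicates 1 and 2. The groups overlapped. Its log2FC was -0.06 (standard error, SE, 0.0717, edgeR adjusted p = 0.761), and its 95% confidence interval corresponded to 0.849- to 1.08-fold.

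*Cdkn1a* (ENSMUSG00000023067.14, chr17:29090976-29100727, plus strand), the gene through which p53 most directly halts the cell cycle, was at 324 and 347 CPM in unloaded and 376 and 339 CPM in loaded cells. The highest value was in loaded replicate 1, and loaded replicate 2 fell between the unloaded values. This gave a log2FC of 0.09 (SE 0.0746, edgeR adjusted p = 0.640), with an interval of 0.939- to 1.21-fold. *Mdm2* (ENSMUSG00000020184.15, chr10:117688875-117710758, minus strand), the feedback inhibitor, was at 323 and 314 CPM in unloaded and 346 and 339 CPM in loaded cells, so both loaded libraries lay above both unloaded ones. Its log2FC was 0.11 (SE 0.0573, edgeR adjusted p = 0.464), with an interval of 0.977- to 1.19-fold. Among the 8 tested genes it had the smallest unadjusted p, 0.112 in edgeR's test.

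The pro-apoptotic targets varied most between replicates. *Bax* (ENSMUSG00000003873.11, chr7:45461697-45466898, minus strand) was at 139.6 and 166 CPM in unloaded and 184 and 152 CPM in loaded cells, log2FC 0.14 (SE 0.125, edgeR adjusted p = 0.683). Loaded replicate 2 again lay between the unloaded libraries, and without loaded replicate 1 the log2FC was -0.0086. *Bbc3* (ENSMUSG00000002083.13, chr7:16308393-16318205, plus strand) was at 18.8 and 26.5 CPM in unloaded and 22.9 and 19.4 CPM in loaded cells. Here both loaded values lay inside the unloaded range. Its log2FC came to -0.10 (SE 0.189, edgeR adjusted p = 0.867), with the widest interval of the set, 0.677- to 1.29-fold. Its direction was not fixed, at 0.17 without unloaded replicate 2 and 0.015 without loaded replicate 2.

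*Ccng1* (ENSMUSG00000020326.7, chr11:40748552-40755311, minus strand) was at 903 and 867 CPM in unloaded and 860.0 and 978 CPM in loaded cells. Loaded replicate 1 held the lowest and loaded replicate 2 the highest of the 4 values. Its log2FC came to 0.05 (SE 0.0741, edgeR adjusted p = 0.799), and it was -0.042 without loaded replicate 2. *Sesn1* (ENSMUSG00000038332.13, chr10:41809935-41908424, plus strand) was at 22.9 and 20.7 CPM in unloaded and 19.03 and 19.6 CPM in loaded cells, with both loaded libraries below both unloaded ones. Its log2FC of -0.18 (SE 0.117, edgeR adjusted p = 0.556) was the largest in size among the 8 genes, with an interval of 0.727- to 1.08-fold.

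*Cdkn1b* (ENSMUSG00000003031.14, chr6:134920401-134925513, plus strand), which is not a classical p53 target and is controlled largely through the stability of its protein, was at 62.7 and 62.0 CPM in unloaded and 63.9 and 68.2 CPM in loaded cells. The loaded libraries lay above the unloaded ones. Its log2FC came to 0.08 (SE 0.0905, edgeR adjusted p = 0.740), with an interval of 0.909- to 1.23-fold.

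**Figure D2:**
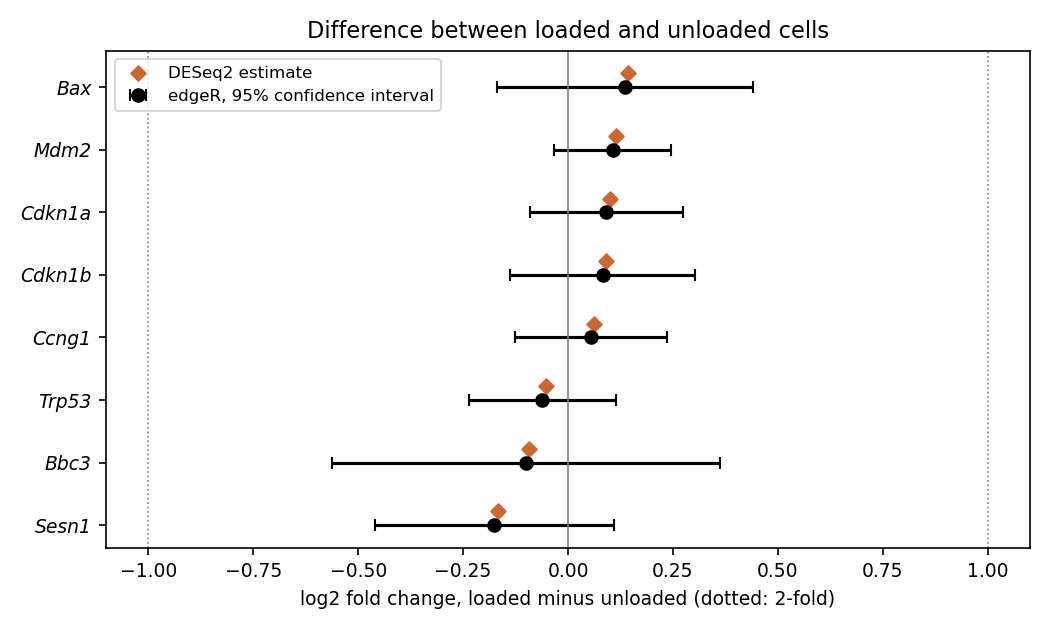
The log2 fold change, loaded minus unloaded (x axis), of the 8 tested genes from edgeR with 95% confidence intervals (black) and from DESeq2 (orange diamonds), with dotted lines at a 2-fold change. Every interval spans 0 and lies within the dotted lines, the widest being that of *Bbc3*.

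The groups did not overlap for 3 of the 8 tested genes, with *Mdm2* and *Cdkn1b* above and *Sesn1* below in loaded cells. Over all tested genes the groups did not overlap for 46.6%, with loaded libraries above for 22.1% and below for 24.5%. No interval reached a 2-fold change in either direction for any of the 8 genes. Smaller changes within the intervals could not be separated from the spread between 2 replicates. For 6 of the 8 genes, all but *Mdm2* and *Sesn1*, the larger of the replicate differences exceeded the difference of the group means on the log2 CPM scale, as it did for 65.6% of the 15854 tested genes with counts in every library.

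The differences between replicates were compared with the base composition of the genes. In the unloaded cultures, replicate 2 minus replicate 1 was 0.49 for *Bbc3*, 0.25 for *Bax*, 0.10 for *Cdkn1a* and 0.09 for *Trp53* on the log2 CPM scale. In the loaded cultures the same genes had the opposite sign, at -0.24, -0.28, -0.15 and -0.10. These are the members richest in G and C among those tested, with 65.2%, 63.5%, 54.4% and 53.3% GC in the longest annotated transcript. *Ccng1*, with the lowest GC content of the tested members at 40.8%, ran the other way, at -0.06 in unloaded and 0.19 in loaded cells. The genes between these in GC content were *Sesn1*, at -0.14 and 0.04, *Mdm2*, at -0.04 and -0.03, and *Cdkn1b*, at -0.02 and 0.09. The sign was thus opposite in the groups for 7 of the 8 genes and the same for *Mdm2*. The share of all tested genes with opposite signs was not computed, so this count has no background beside it. Over genes of at least 10 CPM, the replicate differences of the groups had a correlation of -0.0840. *Sesn1* in unloaded and *Ccng1* in loaded cells differed by more than *Cdkn1a* and *Trp53*.

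**Figure D3:**
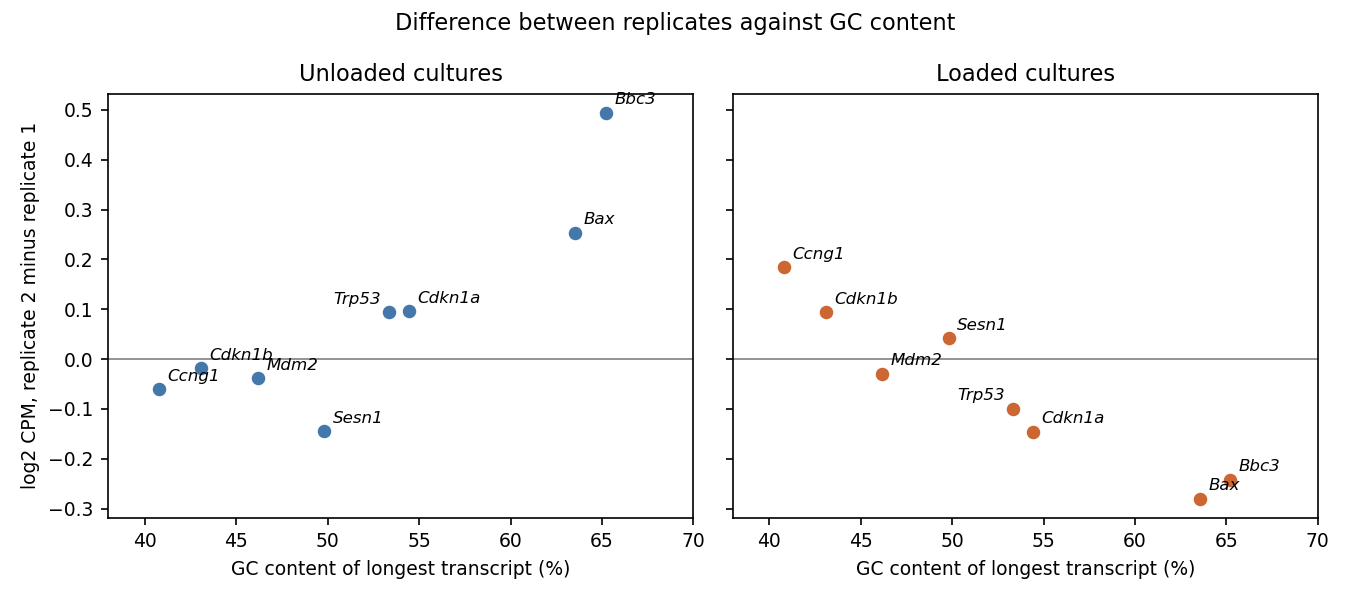
Replicate 2 minus replicate 1 on the log2 CPM scale (y axis) against the GC content of the longest transcript in percent (x axis) for the 8 tested genes, in unloaded (left) and loaded cultures (right). *Bbc3* and *Bax* lie highest on the left and lowest on the right.

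Across the 8 genes, Pearson's r between GC content and the replicate difference was 0.868 in unloaded and -0.955 in loaded cultures. Over 9681 genes of at least 10 CPM it was 0.176 and -0.162, as a description across genes that share the same 4 libraries. The median replicate difference was 0.08 and -0.06 for genes with at least 55% GC and -0.05 and 0.06 for genes under 45% GC. For the difference between loaded and unloaded cells, r with GC content over these genes was 0.00110. With an offset for GC content in each library, the log2FC was 0.10 for *Cdkn1a*, 0.15 for *Bax* and -0.08 for *Bbc3*, and 0 of the 8 genes were called.

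The INK4 inhibitors among the member genes, *Cdkn2a* and *Cdkn2b*, stood apart from the other members. *Cdkn2a* encodes p16INK4a, which blocks CDK4 and CDK6, and from a separate start p19ARF, which restrains MDM2, and *Cdkn2b* encodes the related inhibitor p15INK4b. *Cdkn2a* (ENSMUSG00000044303.6, chr4:89274471-89294653, minus strand) had 0 and 6 counts in the unloaded and 3 and 4 counts in the loaded libraries. These 13 counts together correspond to 0.107 CPM, with an exact 95% Poisson interval of 0.0570 to 0.183 CPM that covers counting error only. Per kb of exon, *Cdkn1a* was 1070-fold higher than *Cdkn2a*, with a counting interval of 626 to 2009. *Cdkn2b* (ENSMUSG00000073802.5, chr4:89306299-89311039, minus strand) had 0 counts in all 4 libraries. Against a floor of 3 counts summed over the 4 libraries, 0.0247 CPM, which covers counting error only, *Cdkn1a* was at least 5486-fold higher and *Cdkn1b* at least 793-fold higher per kb. The counts of the p16INK4a and p19ARF transcripts were not separated. Without the filter on low counts *Cdkn2a* was tested and not called, but that run called no gene at all. DESeq2 gave *Cdkn2a* a log2FC of 0.20 with an unadjusted p of 0.939 and no adjusted p. A loading effect was therefore not detectable for *Cdkn2a* at this depth.

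The sequences at the starts of *Cdkn2a* and *Cdkn2b* are given because these genes were at or near 0. In contrast, *Mtap* and *Gm12606*, on 1 side of them, were expressed. The *Cdkn2a* starts are named by position and were not assigned to p16INK4a or p19ARF here. Each line holds the 120 bases before a RefSeq start on the strand of the gene (GRCm38.p6), with CG dinucleotides in capitals.
*Cdkn2a*, upstream start, chr4:89294620-89294739, minus strand: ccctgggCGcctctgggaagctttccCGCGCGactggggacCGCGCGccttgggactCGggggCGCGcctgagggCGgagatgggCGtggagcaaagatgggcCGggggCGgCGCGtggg
*Cdkn2a*, downstream start, chr4:89282193-89282312, minus strand: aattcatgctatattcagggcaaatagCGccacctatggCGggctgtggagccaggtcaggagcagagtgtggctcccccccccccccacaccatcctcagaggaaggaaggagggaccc
*Cdkn2b*, chr4:89311033-89311152, minus strand: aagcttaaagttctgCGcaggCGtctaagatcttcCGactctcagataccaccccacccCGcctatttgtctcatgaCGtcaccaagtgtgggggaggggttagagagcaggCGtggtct

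In the whole windows, the upstream *Cdkn2a* start held 45 CG dinucleotides, more than 98.1% of all windows, the downstream start held 12, and *Cdkn2b* held 18, beside a median of 7 over all windows. Some expressed members had CG-rich windows as well, with 30 to 39 in those of *Bbc3*, 35 in that of *Mdm2* and 30 in that of *Cdkn1b*. The windows of *Sesn1* held 24 and 31, and that of *Bax* held 19. Fewer were found for *Ccng1*, with 14, *Trp53*, with 10, and the first start of *Cdkn1a*, with 2, while its second start held 23. Expressed members thus lay below the upstream *Cdkn2a* start and on both sides of the downstream start and *Cdkn2b*. Neither the methylation of these sites nor the genomic copy number of the locus was measured here.

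The neighbours of these genes on chromosome 4 were read in the same libraries. *Mtap*, the methylthioadenosine phosphorylase gene next to *Cdkn2a* among protein-coding genes, was at 354 ± 4.63 CPM in unloaded and 360.4 ± 9.82 CPM in loaded cells (SD, n = 2 per group), log2FC 0.03 (edgeR adjusted p = 0.883). The long noncoding RNA gene *Gm12606*, on the same strand as *Cdkn2a* and 1067 bases beyond its 3′ end, had 1251 and 1528 counts in the unloaded and 1715 and 1285 counts in the loaded libraries. *Gm12602*, farther along the same side, had 513 to 645 counts per library. On the other side of *Cdkn2b*, no gene within 250000 bases had more than 14 counts in any library, and the next protein-coding genes, *Dmrta1* and *Elavl2*, had 0 counts in all 4. In all 4 libraries, *Mtap*, *Gm12606* and *Gm12602* were thus expressed on 1 side of the locus, and no gene was expressed at such levels on the other. *Gm12606* and *Gm12602* were not on any list and were named after their values were seen.

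**Figure D4:**
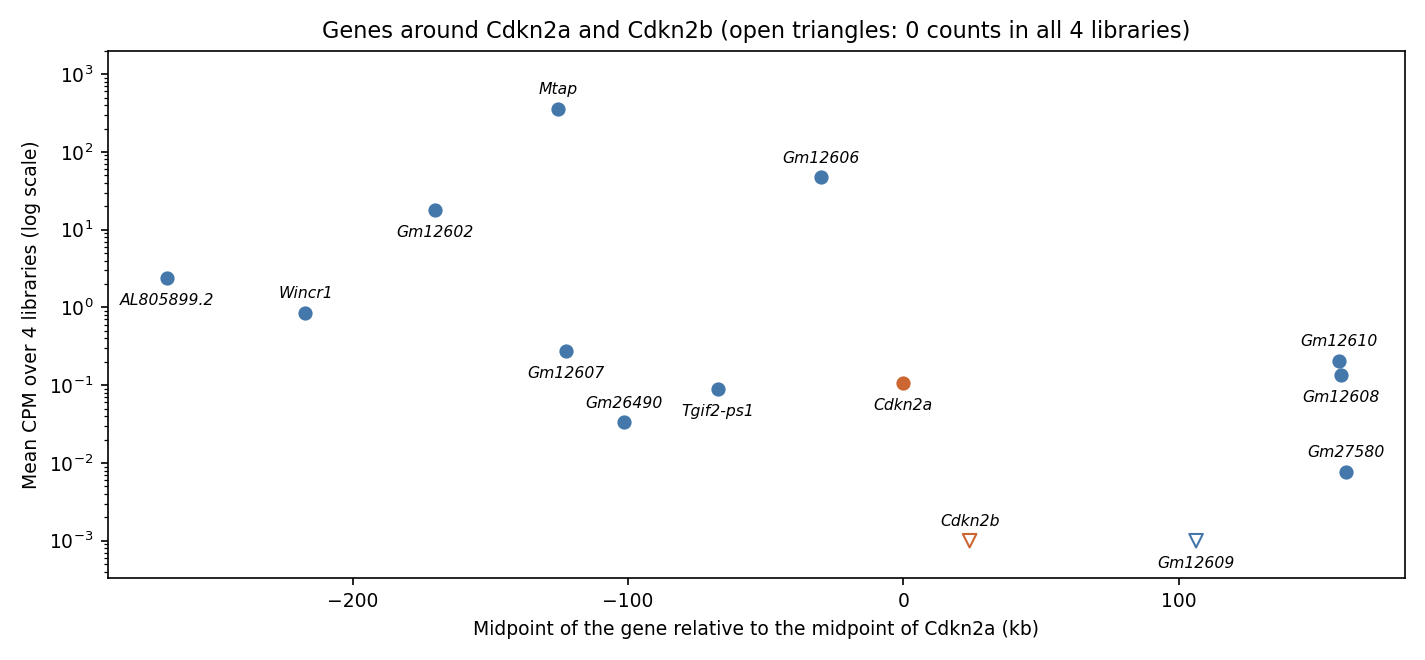
Mean CPM over the 4 libraries (y axis, log scale) of all annotated genes within 250000 bases of *Cdkn2a* and *Cdkn2b* against the distance of each gene's midpoint from that of *Cdkn2a* in kb (x axis), with open triangles for genes at 0 counts in all libraries. *Mtap* and *Gm12606* are at the top on the left, and *Cdkn2a*, *Cdkn2b* and the genes to their right lie near or at 0.

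The wider pathway was examined with lists of other p53 targets, p53 regulators, the BCL2 family, cell cycle regulators and proliferation genes. No gene on any of these lists passed an edgeR adjusted p of 0.01. Of 22 tested targets with roles in arrest and repair, 10 were higher and 12 lower under loading (median log2FC -0.06), and 3 of the 22 in each direction had an unadjusted edgeR p under 0.05, against 6.88% of all tested genes in the higher and 7.46% in the lower direction. *Plk2* and *Plk3*, polo-like kinases, had log2FC values of 0.22 and 0.43 (edgeR adjusted p = 0.152 and 0.164). *Gtse1*, whose product restrains p53 in G2, and *Xpc*, a DNA damage sensor of nucleotide excision repair, had log2FC values of -0.25 and -0.41 (edgeR adjusted p = 0.172 and 0.264). Genes of this list thus lay on both sides of 0.

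Of the other targets with roles in cell death, 9 of 12 were tested, 4 higher and 5 lower, at a median log2FC of -0.04. At an unadjusted edgeR p under 0.05, 1 was higher and 3 were lower, against 6.88% and 7.46% of all tested genes. *Aen*, an apoptosis-enhancing nuclease, was at 120.2 ± 25.5 CPM in unloaded and 163 ± 0.359 CPM in loaded cells (SD, n = 2 per group), log2FC 0.44 (edgeR adjusted p = 0.245, DESeq2 adjusted p = 0.0194). The log2FC of *Aen* was 0.68 without unloaded replicate 1 and 0.23 without unloaded replicate 2. *Fas*, the death receptor gene, was at 82.1 ± 5.69 and 64.5 ± 3.93 CPM, log2FC -0.35 (edgeR adjusted p = 0.194). *Pidd1*, which encodes a scaffold for caspase 2, had a log2FC of -0.30 (edgeR adjusted p = 0.275), and *Cyfip2* had 8 to 43 counts per library and log2FC 1.47 (edgeR adjusted p = 0.448), which was 0.36 without loaded replicate 2. *Pmaip1*, which encodes the pro-apoptotic protein NOXA, had 0 counts in all 4 libraries. *Perp* had 5 counts in unloaded replicate 1 and none elsewhere. *Pmaip1* and *Perp*, and *Trp63*, *Trp73* and *Cdkn1c* among the lists that follow, were named after their values were seen.

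Among 16 tested p53 regulators and relatives, 5 were higher and 11 lower, at a median log2FC of -0.14. An unadjusted edgeR p under 0.05 was found for 1 higher and 2 lower genes, against 6.88% and 7.46% of all tested genes. *Usp7*, the deubiquitinase of MDM2 and p53, had a log2FC of 0.20 (edgeR adjusted p = 0.327), and *Kat5*, an acetyltransferase of p53, had 0.10 (edgeR adjusted p = 0.678). *Daxx*, a histone chaperone that binds MDM2, and *Prkdc*, the DNA-dependent protein kinase, had -0.40 and -0.29 (edgeR adjusted p = 0.188 and 0.242). The p53 relative *Trp63* had 23 to 32 counts per library and *Trp73* had 4 counts in 1 library.

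In the BCL2 family, whose members set the threshold for BAX activation, 4 of 9 tested genes were higher and 5 lower, at a median log2FC of -0.02. Of the 9, 3 were higher and 1 was lower at an unadjusted edgeR p under 0.05, against 6.88% and 7.46% of all tested genes. *Bid*, a BH3-only activator, was at 67.1 ± 2.89 CPM in unloaded and 86.6 ± 1.94 CPM in loaded cells (SD, n = 2 per group), log2FC 0.37 (edgeR adjusted p = 0.143, DESeq2 adjusted p = 0.0296). *Bcl2*, the founding anti-apoptotic gene, was at 22.1 ± 1.88 and 14.6 ± 1.44 CPM, log2FC -0.60 (edgeR adjusted p = 0.140). For *Bcl2l2*, another anti-apoptotic gene, and *Bok*, a BAX relative, the log2FC values were 0.32 and -0.12 (edgeR adjusted p = 0.231 and 0.692).

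Downstream of the CDK inhibitors, 14 of 15 other inhibitors, kinases and cyclins were tested, 4 higher and 10 lower, at a median log2FC of -0.07. With 1 higher and 1 lower gene, an unadjusted edgeR p under 0.05 was found beside 6.88% and 7.46% of all tested genes. *Ccnd2*, which encodes the G1 cyclin D2, was called by DESeq2 (adjusted p = 0.00118) and not by edgeR (adjusted p = 0.0916). It was at 199 ± 8.52 CPM in unloaded and 257 ± 10.2 CPM in loaded cells (SD, n = 2 per group), log2FC 0.37. *Ccnd3* had -0.45 and the mitotic cyclin gene *Ccnb2* had -0.32 (edgeR adjusted p = 0.398 and 0.195), and *Cdk6*, a partner of the D-type cyclins, had 0.08 (edgeR adjusted p = 0.652). For *Ccnd3* the value was -0.097 without unloaded replicate 2 and -0.72 without unloaded replicate 1. *Cdkn1c*, which encodes the CDK inhibitor p57, had 0 counts in all libraries. Of the RB and E2F factors, 3 of 12 were higher and 9 lower, at a median log2FC of -0.13. No gene of this list was higher at an unadjusted edgeR p under 0.05, and 1 was lower, against 6.88% and 7.46% of all tested genes. *Rbl2*, which encodes the RB relative p130, was at 41.1 ± 1.40 and 29.8 ± 0.195 CPM, log2FC -0.46 (edgeR adjusted p = 0.117), and *Rb1* had -0.23 (edgeR adjusted p = 0.377). *E2f5* and *E2f4* had 0.31 and 0.06 (edgeR adjusted p = 0.559 and 0.849).

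Proliferation genes, which p21 and the RB family hold down through E2F and DREAM complexes, were the list with the most one-sided counts. The log2 fold change was below 0 for 19 of 20 tested genes, against 51.5% of all tested genes, and the loaded libraries lay below the unloaded ones for 13 of the 20, against 24.5%. The median was -0.15 and the lowest value -0.33. An unadjusted edgeR p under 0.05 in this direction was found for 7 of the 20, against 7.46% of all tested genes. These counts describe the list without a test of it. The list was chosen with earlier results of these data known, and its genes share the same 4 libraries. *Mki67*, which encodes the proliferation marker Ki-67, was at 1231 ± 70.5 CPM in unloaded and 986 ± 26.9 CPM in loaded cells (SD, n = 2 per group), log2FC -0.32 (edgeR adjusted p = 0.0966, DESeq2 adjusted p = 0.00232). *Top2a*, the topoisomerase of dividing cells, was at 1227 ± 75.6 and 993 ± 65.7 CPM, log2FC -0.30 (edgeR adjusted p = 0.143, DESeq2 adjusted p = 0.0104). *Mcm2*, a subunit of the replicative helicase, was the exception, at 0.03. In bulk RNA, fewer cycling cells and less of these transcripts per cell cannot be told apart, and the cell density at harvest was not analysed here.

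**Figure D5:**
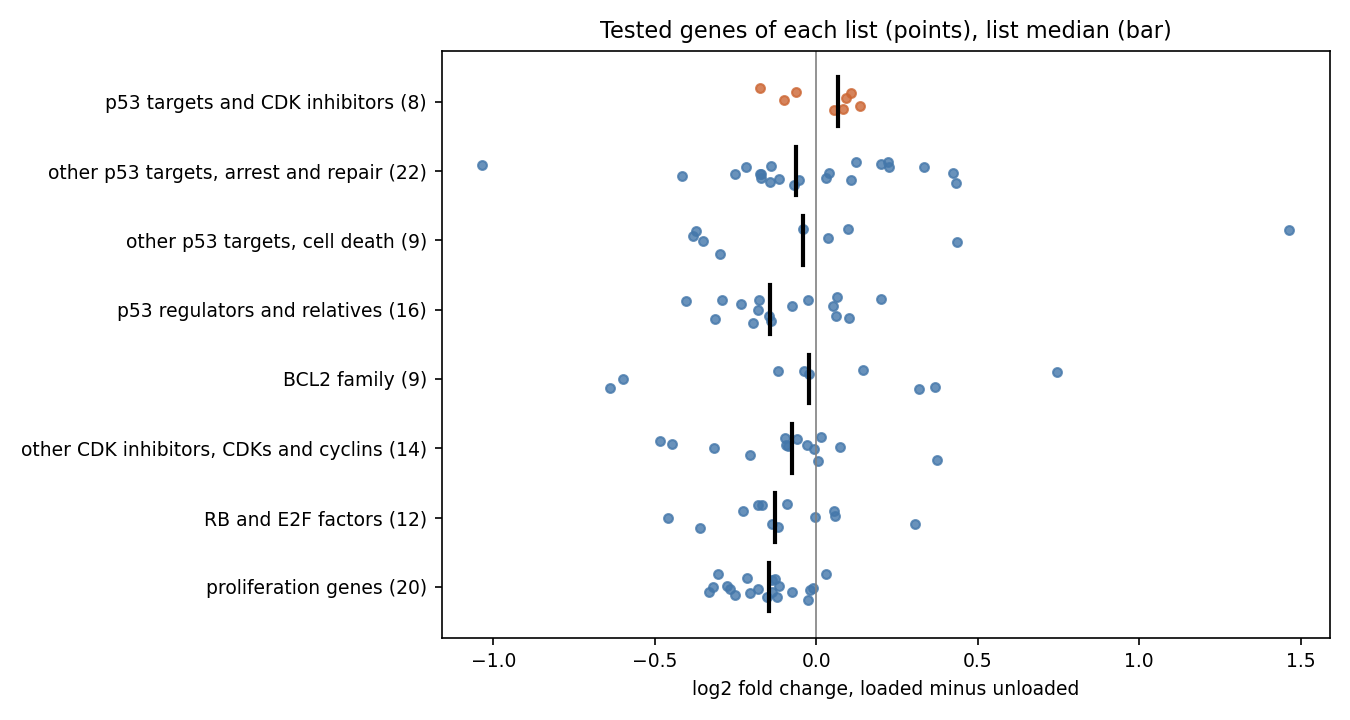
The log2 fold change, loaded minus unloaded (x axis), of every tested gene (points, spread vertically for visibility) in each list, with the number tested in parentheses and a bar at the list median. The 8 tested p53 targets and CDK inhibitors lie between -0.18 and 0.14, and 19 of the 20 proliferation genes lie below 0.

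Beside this, *Cdkn1a* had a log2FC of 0.09 and *Cdkn1b* one of 0.08, neither of which passed the test. Promoter windows were available for 16 of the 20 proliferation genes. The letters TTTGAA are the cell cycle homology element that DREAM complexes contact. They were found on either strand in 6 of the 17 windows of these genes (35.29%) and in 17.89% of all windows. The difference was not tested. Among the windows of the 10 genes the letters occurred in those of *Bax* and *Cdkn2b*.

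Genes that share sequence positions with the members were checked. *Cdkn1a* overlaps *AC167363.2* on the opposite strand, which had 39 to 69 counts per library. *Bax* overlaps the same-strand read-through gene *Gm45808*, at 0 counts in every library, and *Sesn1* overlaps *9930024M15Rik* on its own strand, with at most 4 counts. The strand setting of the counting is not given in the sources used here, so reads from opposite strands may not have been separated. At most 69 counts stand against at least 9419 for *Cdkn1a*.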

How the data were processed

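RNA was depleted of ribosomal RNA and sequenced from 2 unloaded and 2 loaded cultures. The authors mapped trimmed reads to mm10 with HISAT2 2.1.0, assembled transcripts with StringTie 1.3.5 and deposited gene counts made with the prepDE script, which converts assembled coverage into whole numbers, so a count is an estimate of reads. The annotation release is not given in the sources used here, but all 55450 identifiers occur in GENCODE M21 (GRCm38), the source of the coordinates, exon lengths and GC content used. No count was recorded for any of the 13 mitochondrial protein-coding genes. Genes were filtered with filterByExpr (count minimum 10), TMM-normalized and compared by the edgeR 4.0.16 quasi-likelihood F test in R 4.3.3, two-sided, with Benjamini-Hochberg adjustment over 16269 genes and the study's threshold of 0.01. The standard error is the log2 fold change divided by the square root of F. DESeq2 1.42.0, the tool of the study, was an alternative, as were RLE and upper-quartile factors, other filters, the replicate block, leaving out each library and an adjusted p under 0.05. A GC offset (20 bins) was added after the data were seen. The procedure was tested on simulated data in which 200 genes were changed 2-fold. That test does not show how well changes as small as those of the member genes are found. The members and lists were chosen with earlier results of these data known. Besides the 10 members, genes are named if called by edgeR or DESeq2, or among the 2 smallest p in each direction of a list, with locus neighbours and markers free to be named. Other genes are marked. DESeq2 gave an adjusted p for 12484 genes, and missing values were left missing.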

Additional observations from a re-analysis of the deposited data

How the results depend on the processing

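No member gene was called under any alternative run. Some of these runs called no gene at all and so could not have called a member. Among them were the run without a low-count filter and the run with the replicate block. The 8 tested members kept their direction in 84 of 88 alternative fits, and the 4 reversals came from leaving out a library. Over the leave-one-out fits, in which the lone library of a group is assumed to vary like the other group, the log2 fold change ranged from -0.0086 to 0.27 for *Bax*, from -0.32 to 0.17 for *Bbc3*, from -0.042 to 0.15 for *Ccng1* and, outside the members, from -0.038 to 0.15 for *E2f4*. Over all tested genes, 16 were called, against 363 with DESeq2 (170 higher and 193 lower), 147 at an adjusted p under 0.05, 29 with at least 10 counts in every library, 0 without a low-count filter, 0 with the replicate block, and between 0 and 58 when each library was left out. Deviations from the group means were not shared by libraries with equal replicate numbers (correlation across genes -0.0840), and the labels name no pairing. With the replicate block, the log2 fold change was -0.06 for *Trp53*, 0.09 for *Cdkn1a* and 0.11 for *Mdm2*. DESeq2 called 1 gene in the list of other CDK inhibitors, kinases and cyclins, 1 proliferation gene, 1 osteocyte marker (*Pdpn*) and 1 osteoblast marker (*Spp1*), and at an adjusted p under 0.05 edgeR called 1 osteocyte and 1 osteoblast marker. Why these counts moved between tools was not tested. With 2 libraries per group, differences inside the intervals given above could not be separated from the spread between replicates. The intervals are not limits of detection, and larger changes could be missed as well. *Pdpn*, at a log2FC of 0.59, was not called by edgeR at 0.01 (adjusted p = 0.0334).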

Other observations

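Some genes of the same pathways differed more between replicates than between groups, and they were named after their values were seen. A larger difference between replicates than between groups was found for 65.6% of the 15854 tested genes with counts in every library. *Bcl2l1*, which encodes the anti-apoptotic protein BCL-XL, had 885 and 1027 counts without loading and 1074 and 2225 counts with it, log2FC 0.74 (edgeR adjusted p = 0.403). *Foxm1*, a transcription factor of mitotic genes, had 3146 and 5277 counts without loading and 3527 and 3437 with it. *Apaf1*, the core of the apoptosome and a p53 target, had 4146 and 2615 counts without loading and 2723 and 2719 with it. *Cdkn2d*, which encodes the INK4 inhibitor p19INK4d, had 537 and 592 counts without loading and 575 and 278 with it. In each of these genes 1 library stood apart while the other 3 lay close together, namely loaded replicate 2 for *Bcl2l1* and *Cdkn2d*, unloaded replicate 2 for *Foxm1* and unloaded replicate 1 for *Apaf1*. *Cdkn2c*, the INK4 gene on another part of chromosome 4, had 1935 to 2096 counts per library, in contrast to *Cdkn2a* and *Cdkn2b*.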
